A study of Caenorhabditis elegans with 11 samples.

Results

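Transcript levels of folt-2, C35A5.3 and folt-1 were examined in tumoral *C. elegans* given tryptophan-betaxanthin or one of its ester derivatives. These 3 genes, each measured by 1 single-gene probe set, are 3 of 26128 genes with such a probe set. The genes folt-2 and C35A5.3 were selected because their signals were above the water controls with tryptophan-betaxanthin and highest with the benzyl ester derivative, so those contrasts are described here without a test. The gene folt-1 was added as the paralogue of folt-2. Animals of the strain JK1466, labelled gld-1(-), were treated from 16 to 18 h after hatching, for 48 h at 20 °C in liquid medium, and collected whole as L4 larvae or young adults. The labels also state an age of 2 days from hatching, which is less than those times add up to. Per the study's methods the gld-1 (q485) allele is carried over a chromosome marked with dpy-5 (e61) and unc-13(e51). All animals, those given water included, were fed bacteria that knock down gld-1, a tumor suppressor gene whose loss lets germ cells proliferate. The groups were tryptophan benzyl ester-betaxanthin (25 µM, 3 arrays), tryptophan methyl ester-betaxanthin (25 µM, 3 arrays), tryptophan-betaxanthin (25 µM, 3 arrays) and water (2 arrays), on *C. elegans* Gene 1.1 ST arrays. Treated arrays came from independent trials 1, 2 and 3 and water arrays from trials 1 and 2. Signals are log2 values after RMA, a method that corrects the background, equalises the arrays and summarises the probes of each gene, so a difference of 1 is a doubling, and levels of different probe sets are not compared.

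Betaxanthins are yellow plant pigments in which betalamic acid is joined to an amine, here tryptophan. In the ester derivatives the carboxyl group of tryptophan carries a methyl or a benzyl group. Animals cannot make folate and take it up from food, which for worms means bacteria, and folate then carries the one-carbon units used for purines, thymidylate and the remethylation of homocysteine to methionine. The SLC19 family of membrane carriers, which in mammals moves folate and thiamine, is represented in *C. elegans* by folt-1, folt-2 and folt-3, of which folt-1 is known as the worm's reduced folate carrier. C35A5.3 is a protein-coding gene to which the annotation used here gives no other name. All 4 genes lie on chromosome V in RefSeq.

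In the animals given the benzyl ester, folt-2 had a log2 signal of 9.06, 9.23 and 8.83 in trials 1, 2 and 3. With the methyl ester the signals were 6.04, 6.18 and 5.05. With tryptophan-betaxanthin they were 7.62, 8.10 and 7.93, against 5.95 and 5.59 with water. The benzyl ester arrays lay above all others, the tryptophan-betaxanthin arrays lay between, and the methyl ester arrays overlapped the water arrays, with the methyl ester array of the third trial the lowest of all 11. Group means (± SD) were 9.04 ± 0.20 for the benzyl ester, 5.76 ± 0.61 for the methyl ester and 7.88 ± 0.24 for tryptophan-betaxanthin, of 3 arrays each, and 5.77 ± 0.25 for the 2 water arrays. The difference from water was therefore 3.27 log2 units for the benzyl ester (standard error 0.31), a 9.66-fold higher signal. It was 2.12 for tryptophan-betaxanthin (standard error 0.31), 4.33-fold, and -0.01 for the methyl ester (standard error 0.31).

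C35A5.3 had a log2 signal of 7.17, 7.60 and 7.09 with the benzyl ester, and 5.25, 4.83 and 5.13 with the methyl ester. It had 5.93, 6.23 and 6.26 with tryptophan-betaxanthin, against 4.15 and 4.29 with water. Here the 4 groups did not overlap, and the methyl ester lay between tryptophan-betaxanthin and water. The means were 7.29 ± 0.28 (SD, n = 3), 5.07 ± 0.22 (SD, n = 3) and 6.14 ± 0.18 (SD, n = 3) for the benzyl ester, the methyl ester and tryptophan-betaxanthin in that order, and 4.22 ± 0.10 (SD, n = 2) for water. The differences from water were 3.07 for the benzyl ester, 0.85 for the methyl ester and 1.92 for tryptophan-betaxanthin (standard error 0.18 each), or 8.38-fold, 1.80-fold and 3.78-fold. In whole animals, more cells that express a gene and more RNA per cell cannot be told apart.

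**Figure D1:**
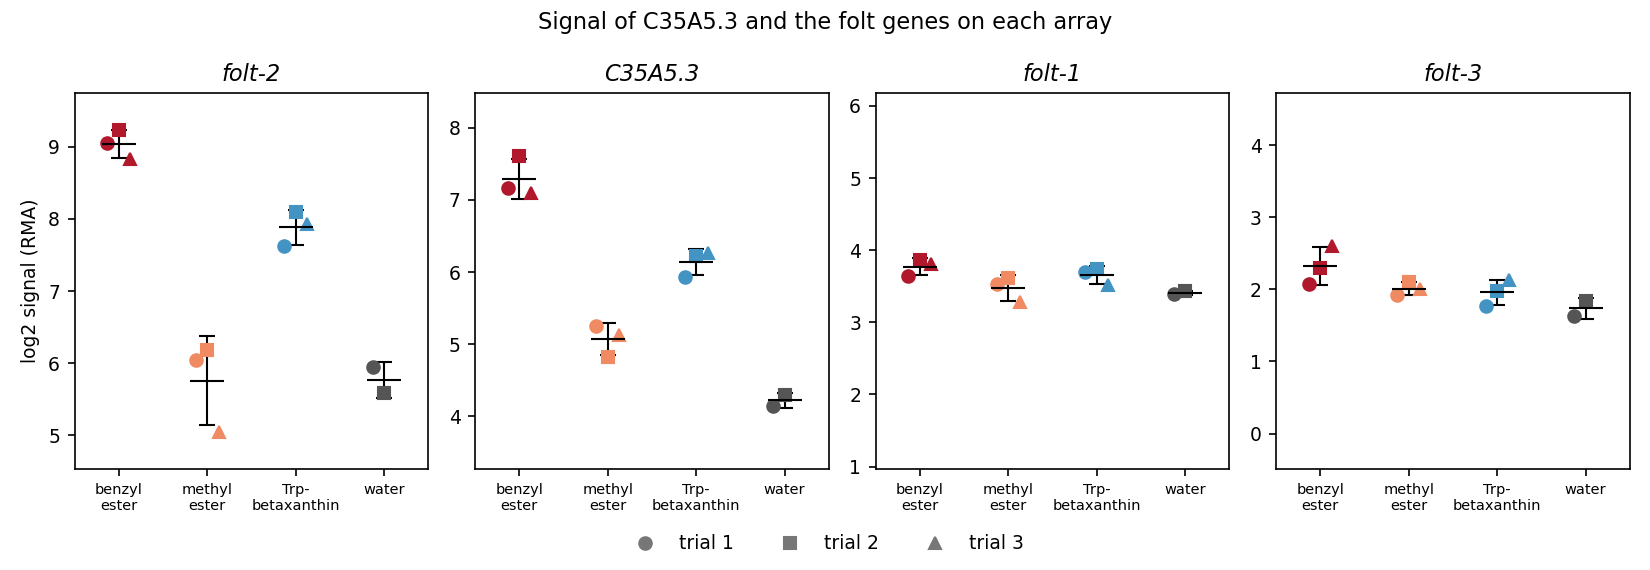
Log2 signal (RMA, vertical axes of equal length in log2 units) of folt-2, C35A5.3, folt-1 and folt-3 on each array, by group. Symbols stand for trials, the horizontal line for the group mean and the bars for the SD. The folt-2 and C35A5.3 signals are highest with the benzyl ester (means of 9.04 and 7.29) and lower with tryptophan-betaxanthin (7.88 and 6.14), while the group means of folt-1 lie between 3.41 and 3.77.

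Both genes were near the top of the array in the contrasts by which they were selected. Ordered by difference, folt-2 and C35A5.3 ranked 3 and 4 of 26761 probe sets for the benzyl ester against water, and 5 and 6 for tryptophan-betaxanthin against water. For the benzyl against the methyl ester they ranked 2 and 8. For the methyl ester against water, C35A5.3 ranked 634 and folt-2 ranked 14528, close to the middle of the list. As a background, limma called 0.564% of probe sets for the benzyl ester against water at an adjusted p under 0.05, 0.258% for the methyl ester and 0.00374% for tryptophan-betaxanthin. In the direction called higher alone these shares were 0.452% for the benzyl ester and 0.224% for the methyl ester. Probe sets that were higher without overlap made up 19% of the table for the benzyl ester against water, 20.4% for the methyl ester and 16.2% for tryptophan-betaxanthin. The full order of folt-2, with every benzyl ester array above every tryptophan-betaxanthin array and these above every methyl ester and water array, was shared by 27 probe sets (0.101%). In 6 of them (0.0224%) the benzyl ester and tryptophan-betaxanthin means were also at least 1 log2 unit above water, a count added after the values were seen. The order of C35A5.3, with the methyl ester also above water, was shared by 5 probe sets (0.0187%). The 6 were folt-2, C35A5.3, K08D8.3, T07D3.9, hach-1 and dhgd-1.

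The compounds were compared with each other at the same dose and time. Between the benzyl ester and tryptophan-betaxanthin the differences were nearly equal for the 2 genes, 1.16 for folt-2 (standard error 0.27) and 1.15 for C35A5.3 (standard error 0.16). Between the methyl ester and tryptophan-betaxanthin the difference was -2.13 for folt-2 (4.37-fold lower with the methyl ester) and -1.07 for C35A5.3 (2.10-fold lower). Between the benzyl and the methyl ester it was 3.28 for folt-2 and 2.22 for C35A5.3, or 9.73-fold and 4.65-fold. Neither gene had overlapping arrays in these comparisons, where 13.4% of probe sets were higher without overlap for the benzyl ester against tryptophan-betaxanthin, 12.9% lower for the methyl ester against tryptophan-betaxanthin and 3.96% higher for the benzyl against the methyl ester. Thus the derivative with the benzyl group had the highest signals of the 3 compounds and the derivative with the methyl group the lowest, for both genes.

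The 3 comparisons with water share the same 2 water arrays. Within trials the order of the compounds was the same each time. For folt-2, benzyl ester minus tryptophan-betaxanthin was 1.44, 1.13 and 0.90 in trials 1, 2 and 3, and methyl ester minus tryptophan-betaxanthin was -1.58, -1.92 and -2.88. For C35A5.3 the corresponding differences were 1.24, 1.38 and 0.83, and -0.68, -1.40 and -1.12. Against the water array of the same trial, available for trials 1 and 2, folt-2 differed by 3.11 and 3.64 with the benzyl ester and by 1.67 and 2.51 with tryptophan-betaxanthin. With the methyl ester, folt-2 differed by 0.09 and 0.59 and C35A5.3 by 1.10 and 0.53. The 2 genes therefore departed from each other mainly in the methyl ester group, where the array of the third trial was 0.72 log2 units below the water mean for folt-2 (-0.72) and 0.91 above it for C35A5.3. Without the third trial, the mean difference between methyl ester and water was 0.34 for folt-2 and 0.82 for C35A5.3.

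**Figure D2:**
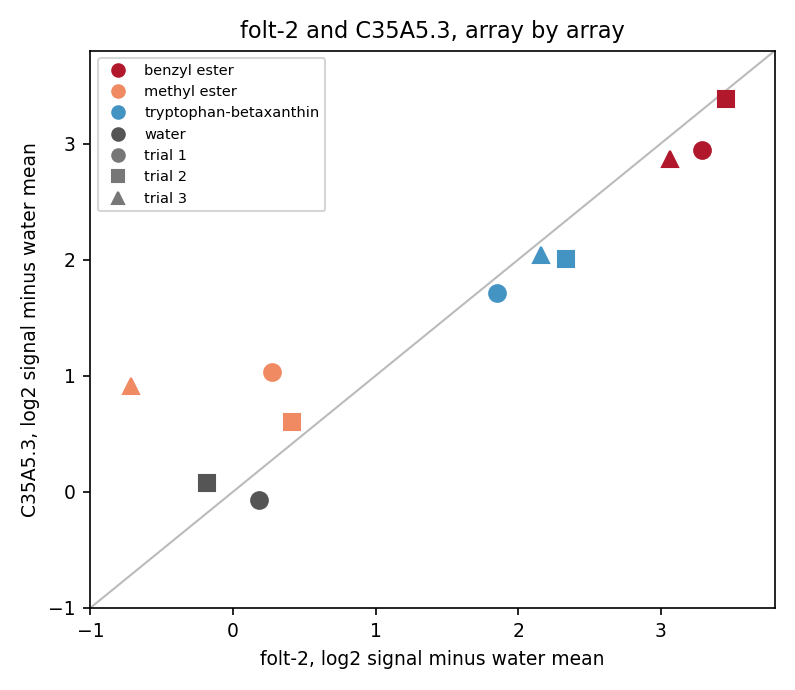
Signal of C35A5.3 (vertical) against folt-2 (horizontal) on each of the 11 arrays, both as log2 units above the mean of the water arrays, with colour for the group, symbols for the trial and the grey line marking equal differences. Benzyl ester arrays lie between 2.87 and 3.46 on both axes, and the methyl ester array of the third trial stands off the line at -0.72 and 0.91.

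The paralogue folt-1, which was not selected by its values, showed differences of less than 0.5 log2 units. Its signals were 3.65, 3.87 and 3.81 with the benzyl ester, 3.54, 3.62 and 3.28 with the methyl ester, and 3.70, 3.75 and 3.51 with tryptophan-betaxanthin, against 3.39 and 3.43 with water. All benzyl ester and tryptophan-betaxanthin arrays lay above the water arrays, the methyl ester arrays overlapped them, and neighbouring groups among the compounds overlapped. The difference from water was 0.36 for the benzyl ester (95% interval 0.08 to 0.64, adjusted p = 0.232 from limma), 0.07 for the methyl ester (-0.22 to 0.35, adjusted p = 0.839) and 0.24 for tryptophan-betaxanthin (-0.04 to 0.52, adjusted p = 0.856). Between compounds, folt-1 differed by 0.30 for the benzyl against the methyl ester (95% interval 0.04 to 0.55, adjusted p = 1.00 from limma). It differed by 0.12 for the benzyl ester against tryptophan-betaxanthin (-0.13 to 0.37, adjusted p = 0.616) and by -0.17 for the methyl ester against tryptophan-betaxanthin (-0.43 to 0.08, adjusted p = 0.438). No comparison of folt-1 passed the adjusted threshold. In RefSeq folt-1 overlaps C06H2.7, which differed from water by -0.83 with the benzyl ester (limma, adjusted p = 0.448). With the methyl ester C06H2.7 differed by -0.66 and with tryptophan-betaxanthin by -0.27 (adjusted p = 0.528 and 0.954 from limma). C06H2.7 lay outside the planned choice of genes and counts as chosen after its values were seen.

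The remaining carrier gene, folt-3, had signals of 2.08, 2.29 and 2.59 with the benzyl ester, 1.92, 2.10 and 2.00 with the methyl ester and 1.77, 1.97 and 2.12 with tryptophan-betaxanthin, against 1.64 and 1.84 with water. These lie around the median of all tested probe sets (2.28), where signals may be close to a background that was not measured. The largest of its differences, benzyl ester against water, was 0.58 (95% interval 0.22 to 0.94, adjusted p = 0.156 from limma), and none of the 6 comparisons passed.

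Among the genes of folate use, the methionine cycle and its exit, cth-1 was higher with the methyl ester than with water or tryptophan-betaxanthin. This is a gene of the exit, and without the trial as a block no gene of folate use or of the cycle itself was called. With the trial fitted as a block, dao-3 passed as well. A list of 25 genes besides the members was used, for folate uptake, folate interconversion and the methionine cycle with its exit. Of these, 24 were measured and dhfr-1 was not analysed here. Against water, limma called none of the 24 with the benzyl ester, 1 higher with the methyl ester and none with tryptophan-betaxanthin. Before adjustment, 8 genes were higher with p under 0.05 and 0 were lower with the benzyl ester. With the methyl ester 8 were higher and 1 was lower, and with tryptophan-betaxanthin 7 were higher and 0 lower. Over all probe sets, 8.21% were higher and 7.07% lower at this p with the benzyl ester, 8.25% and 8.13% with the methyl ester, and 2.52% and 3.52% with tryptophan-betaxanthin. The median difference of the list was 0.10, 0.28 and 0.23, against medians of 0.01 over all probe sets in each comparison. With the trial as a block, limma called 2 of the 24 with the benzyl ester (dao-3 and cth-1), 3 with the methyl ester (dao-3, cth-1 and mel-32) and 0 with tryptophan-betaxanthin, while 1.28%, 1.19% and 0.0336% of all probe sets were called. All of these were higher than water.

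The called gene was cth-1, which encodes a cystathionine gamma-lyase that releases cysteine from the transsulfuration branch. Its log2 signal was 6.46, 6.51 and 6.77 with the methyl ester, 5.37, 5.31 and 5.87 with tryptophan-betaxanthin and 5.07 and 5.20 with water. It rose by 1.45 against water (standard error 0.20, adjusted p = 0.0272 from limma) and by 1.07 against tryptophan-betaxanthin (standard error 0.18, adjusted p = 0.0305), where 1.37% of probe sets were called, 0.93% higher. With the benzyl ester the signals of cth-1 were 5.63, 5.84 and 6.17, all below those with the methyl ester (difference -0.70, adjusted p = 0.474 from limma). The 2 esters thus stood in the reverse order to that of folt-2 and C35A5.3. In this comparison 0.149% of probe sets were called and none of the 24 genes was, with 6 of them lower and 0 higher at an unadjusted p under 0.05, against 1.9% lower and 2.43% higher over all probe sets. With the trial as a block this difference passed (adjusted p = 0.0262 from limma), the 1 call among the 24, with 0.235% of probe sets called. Without the block, the call for cth-1 against water was lost when either water array was left out (adjusted p = 0.464 and 0.288), and in 7 of the 11 fits without 1 array. Against tryptophan-betaxanthin it was lost in 6 of them, with adjusted p = 0.145 at most. In that comparison 3 of the 24 were higher and 1 was lower before adjustment, against 10.3% and 9.91% of all probe sets.

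Among enzymes that carry folate chemistry, atic-1, for the last steps of purine synthesis, had a difference from water of 0.67 for the benzyl ester (limma, adjusted p = 0.0691) and of 0.66 with the methyl ester (adjusted p = 0.0972). The serine hydroxymethyltransferase gene mel-32 differed by 0.51 with the methyl ester (adjusted p = 0.0913, or 0.0495 with the block) and by 0.39 with tryptophan-betaxanthin (adjusted p = 0.495). The methylenetetrahydrofolate reductase gene mthf-1 differed by 0.48 with tryptophan-betaxanthin (adjusted p = 0.74), and mtrr-1, for the reductase that keeps methionine synthase active, by 0.57 (adjusted p = 0.75). The methionine synthase gene metr-1 was 0.62 log2 units lower with the benzyl ester than with tryptophan-betaxanthin (-0.62, adjusted p = 0.0688 from limma, or 0.0116 with the block). The gene dao-3, for a mitochondrial folate dehydrogenase, was 0.83 higher with the methyl ester than with tryptophan-betaxanthin (adjusted p = 0.108, or 0.00663 with the block). Against water the blocked difference of dao-3 was 1.08 for the methyl ester (adjusted p = 0.00748 from limma) and 0.72 for the benzyl ester (adjusted p = 0.0265). The S-adenosylmethionine synthetase genes sams-4 and sams-1 had differences of -0.50 and -0.31 for the benzyl against the methyl ester (adjusted p = 0.679 and 0.988). Without the block none of the genes named so far in this paragraph passed. For the benzyl ester against tryptophan-betaxanthin, 3.09% of all probe sets were called (2.1% higher) and none of the 24, with 3 higher and 5 lower before adjustment, against 11.2% and 8.92% of all probe sets. With the block 4 of the 24 were called in this comparison, dao-3 (0.47) and cth-1 (0.37) higher and metr-1 (-0.62) and mtrr-1 (-0.46) lower, with 11.3% of all probe sets called. For the methyl ester against tryptophan-betaxanthin the block gave 2, cth-1 and dao-3, with 11.1% called. Of these, cth-1 passed without the block as well.

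**Figure D3:**
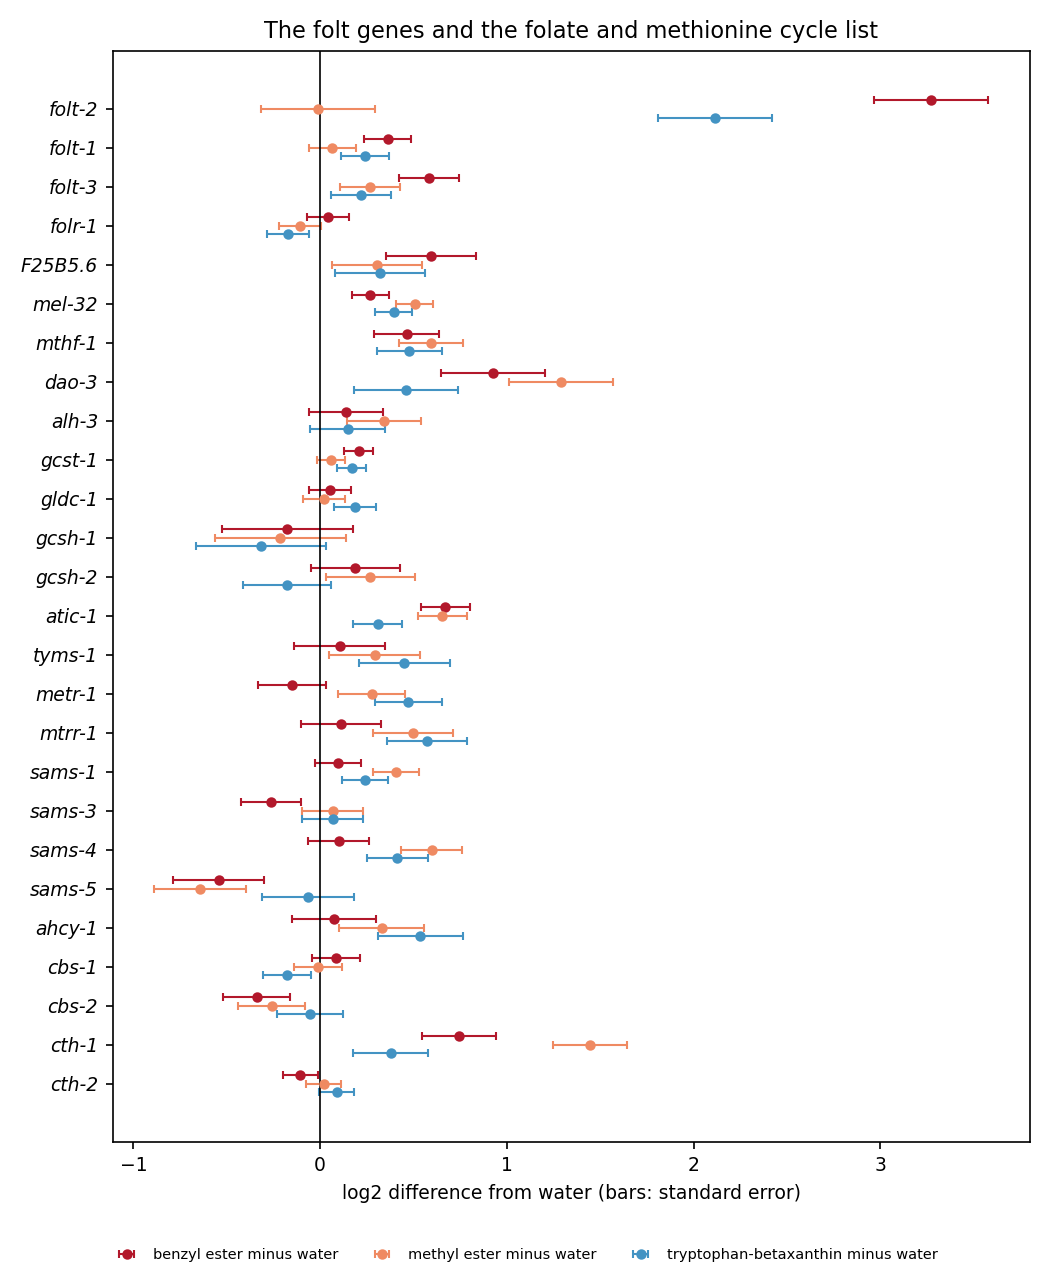
Log2 difference from water (horizontal) of folt-2, folt-1 and the 24 measured genes of the folate and methionine cycle list, for the benzyl ester, the methyl ester and tryptophan-betaxanthin. Points are differences of group means and bars their standard errors. The folt-2 differences, by which that gene was selected, are 3.27 and 2.12 for the benzyl ester and tryptophan-betaxanthin, and cth-1 reaches 1.45 with the methyl ester.

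The profiles most like those of the 2 genes were sought by the root mean square distance over the 11 arrays, after subtracting the water mean of each gene, among 13148 other single-gene probe sets with a mean signal at or above the median. Each of the 2 was the nearest to the other (0.58 log2 units), a value that their selection for a common pattern helps to set. Next to both came pmp-5, which encodes a peroxisomal-type ABC transporter, at 0.83 from folt-2 and 0.68 from C35A5.3. Its signals were 7.75, 7.94 and 8.05 with the benzyl ester, 6.79, 6.94 and 6.10 with the methyl ester and 7.73, 7.75 and 7.50 with tryptophan-betaxanthin, against 5.91 and 6.03 with water. The methyl ester array of the third trial was again the lowest of its group, though above water. The genes hach-1, T07D3.9, K08D8.3 and F32D8.12 were among the 8 nearest to both. Only folt-2 had dhgd-1 and vmo-1 among its 8 nearest, and only C35A5.3 had the collagen gene col-54 and the insulin-like peptide gene ins-35. The water mean of vmo-1 (1.95) lay below the median of all tested probe sets (2.28), where signals may be close to background. The distances of the eighth gene were 1.06 from folt-2 and 0.88 from C35A5.3, and those of the ninth 1.09 and 0.90. The median over all candidates was 2.09 and 1.98, and folt-1 ranked 1135 and 2120.

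Some of these neighbours in profile encode enzymes of organic acid breakdown. The gene hach-1 encodes the hydroxyacyl-CoA hydrolase of the propionate shunt, a route by which worms break down propionate when vitamin B12 is scarce. It had signals of 7.37, 7.73 and 7.39 with the benzyl ester, 5.99, 5.82 and 5.42 with the methyl ester and 6.57, 6.78 and 6.66 with tryptophan-betaxanthin, against 5.58 and 5.45 with water. Its benzyl ester arrays stood above all others and its methyl ester arrays overlapped those given water, as with folt-2. The gene dhgd-1, for a D-2-hydroxyglutarate dehydrogenase, differed from water by 1.72 with the benzyl ester, 0.04 with the methyl ester and 1.01 with tryptophan-betaxanthin. T07D3.9 had differences of 2.17, -0.17 and 1.09 in that order and K08D8.3 of 2.19, 0.47 and 1.02. Other genes of the shunt were looked at after these values were seen. The acyl-CoA dehydrogenase gene acdh-1, for the first step, ranked 10 in nearness to folt-2 and 11 to C35A5.3, with differences from water of 1.53, 0.54 and 1.23. The enoyl-CoA hydratase gene ech-6 had 1.07, 0.40 and 0.75, and nhr-68, for a nuclear receptor that activates the shunt genes, 1.41, 0.83 and 0.77. The other receptor of that circuit, nhr-10, had 0.33, 0.10 and -0.17. The nuclear receptor gene nhr-114 had 0.59, 1.19 and 0.53, and was thus highest with the methyl ester, where every array lay above those of the benzyl ester. The dehydrogenase gene alh-8 had 0.95, 0.42 and 0.84, and its benzyl ester arrays overlapped the water arrays. The shunt gene hphd-1 was not analysed here. In nearness to folt-2 and C35A5.3, nhr-68 ranked 28 and 30, ech-6 45 and 95, and alh-8 69 and 160. Further off, nhr-114 ranked 798 and 557 and nhr-10 ranked 3627 and 4010. The acdh-1 paralogue acdh-2 was higher with the benzyl ester alone, with 3.73, 3.98 and 3.82. Its signals were 1.42, 1.64 and 1.68 with the methyl ester, 1.66, 1.50 and 1.46 with tryptophan-betaxanthin and 2.02 and 1.70 with water. Outside the benzyl ester group its signals lay below the median of all tested probe sets (2.28) and may be close to background. These genes were chosen by their likeness or after their values were seen, so the values are a description.

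**Figure D4:**
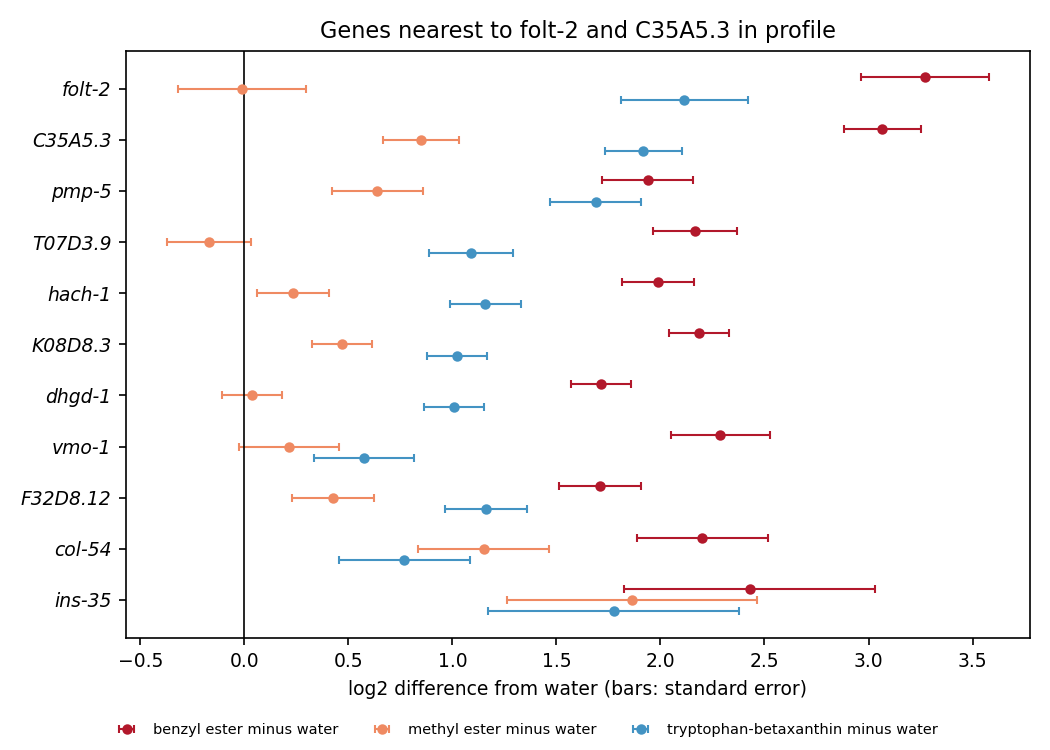
Log2 difference from water (horizontal) of folt-2, C35A5.3 and the genes with the nearest profiles over 11 arrays, for the 3 compounds, with bars for standard errors. In each row except those of col-54 and ins-35 the benzyl ester lies highest, tryptophan-betaxanthin next and the methyl ester lowest, as for hach-1 with 1.99, 1.16 and 0.23.

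The genes beside folt-2 and C35A5.3 on the chromosome were compared as well, taking the 3 nearest probed genes on each side in RefSeq order. On one side of folt-2 these were not adjacent, and 19 and 24 RefSeq genes separated it from T03D3.5 and F54E2.1. Of the 12, limma called 1 for the benzyl ester against water, with 0.564% of all probe sets called. This was ugt-53, a UDP-glucuronosyltransferase gene separated from folt-2 by 9 RefSeq genes that have no single-gene probe set. Its signals were 4.68, 4.72 and 4.25 with the benzyl ester, 2.95, 2.95 and 3.85 with the methyl ester and 3.48, 3.10 and 3.03 with tryptophan-betaxanthin, against 2.99 and 2.55 with water. With the benzyl ester it rose by 1.78 log2 units against water (standard error 0.29, adjusted p = 0.0322 from limma) and by 1.35 against tryptophan-betaxanthin (adjusted p = 0.0317). In the comparison with tryptophan-betaxanthin 1 of the 12 was called, with 3.09% of all probe sets called. With tryptophan-betaxanthin the difference of ugt-53 from water was 0.43 (adjusted p = 0.871 from limma). The call against water was lost without either water array (adjusted p = 0.198 and 0.389) and in 7 of the 11 fits without 1 array. The call against tryptophan-betaxanthin was lost in 7 as well, with adjusted p = 0.131 at most. The genes on the other side, F37B4.10 and str-39, had differences from water between -0.13 and 0.14. The group means of str-39 were 1.36 to 1.40, below the median of all tested probe sets (2.28), where signals may be close to background. The next gene, ifc-1, had a difference of 0.82 with tryptophan-betaxanthin (adjusted p = 0.811 from limma). Beyond ugt-53, T03D3.5 differed from water by -0.53, -0.48 and -0.23 with the benzyl ester, the methyl ester and tryptophan-betaxanthin. In the same order F54E2.1 differed by 0.23, 0.49 and 0.10. None of the 12 was called with the methyl ester or tryptophan-betaxanthin against water, with 0.258% and 0.00374% of all probe sets called.

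Around C35A5.3, the next gene C35A5.11 had signals of 7.22, 6.95 and 5.56 with the benzyl ester, 5.12, 5.04 and 5.76 with the methyl ester and 5.34, 5.38 and 5.71 with tryptophan-betaxanthin, against 4.84 and 5.03 with water. The benzyl ester array of the third trial fell among those of the other compounds, and the difference of 1.64 from water did not pass (adjusted p = 0.135 from limma). The gene on the other side, C35A5.4, overlaps C35A5.3 in RefSeq. It differed from water by -0.47, -0.55 and -0.21 with the benzyl ester, the methyl ester and tryptophan-betaxanthin (adjusted p = 0.19, 0.17 and 0.875), the opposite sign to C35A5.3. The other neighbours, aqp-5, ugt-33, C35A5.10 and gtnt-14, lay between -0.42 and 0.67 against water and none was called. Group means of aqp-5 (1.19 to 1.31), C35A5.10 (1.57 to 1.99) and ugt-33 (1.41 to 2.00) lay below the median of all tested probe sets (2.28). So did those of gtnt-14 except with the benzyl ester (2.47). Signals there may be close to a background that was not measured, so a change could be missed. With the block, gtnt-14 passed for the benzyl ester against tryptophan-betaxanthin (difference 0.70, adjusted p = 0.0358 from limma). The block called 2 of the 12 neighbours in this comparison, with 11.3% of all probe sets called.

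**Figure D5:**
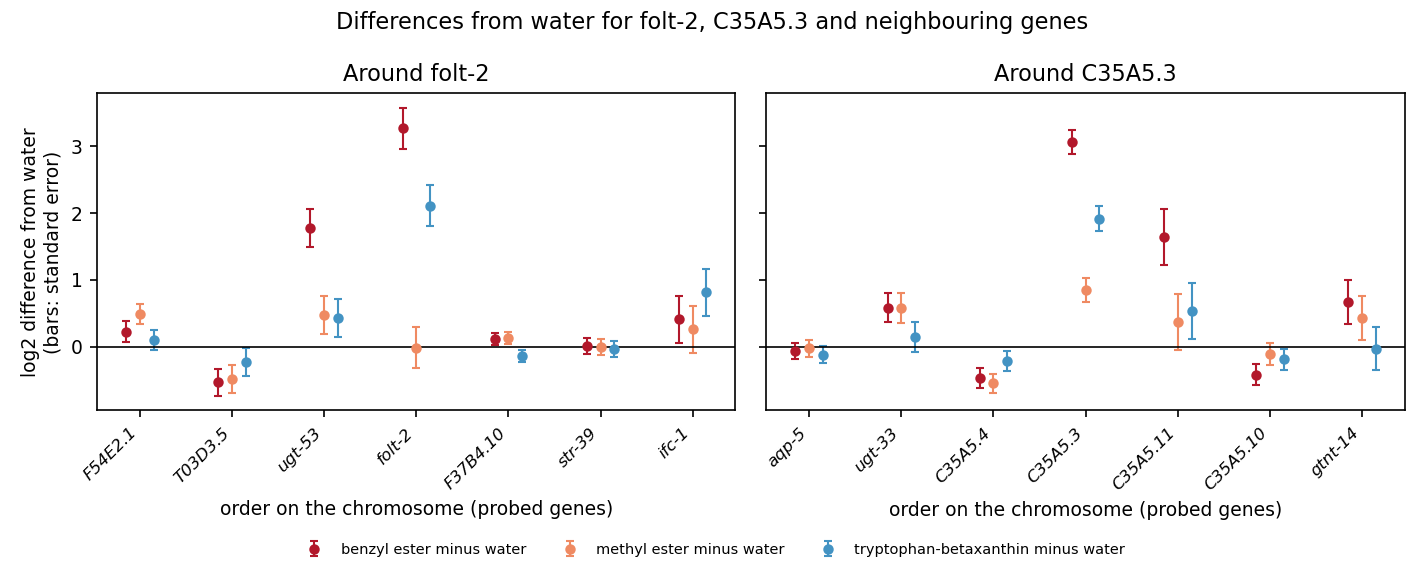
Log2 difference from water (vertical) of folt-2 and C35A5.3 and of the 3 nearest probed genes on each side, in chromosome order (horizontal, not to distance), for the 3 compounds, with bars for standard errors. Beside folt-2 only ugt-53 was called, at 1.78 with the benzyl ester, and C35A5.11 beside C35A5.3 reached 1.64 with a standard error of 0.42.

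Summed signals of reproduction and moulting markers differed between the ester and water arrays. Those of the sperm and moulting lists did so with tryptophan-betaxanthin as well. The part of these markers in the values above was not tested. The summed signal of 6 yolk protein genes was 1002 to 3578 with the benzyl ester, 1528 to 4165 with the methyl ester and 4112 to 5170 with tryptophan-betaxanthin, against 4999 to 5043 with water. For 10 oocyte and eggshell genes the sums were 310.4 to 652, 302 to 890.0, 1131 to 1394 and, with water, 1138 to 1253. The 7 measured of 8 moulting genes had 733 to 1814, 891 to 1917, 684 to 907 and, with water, 530.0 to 547. The lowest yolk and the highest moulting sums of each ester belonged to the third trial. The 7 measured of 8 intestinal genes, including those of the tissue that takes up food, had 2173 to 3292, 2860 to 3490, 2997 to 3427 and, with water, 2582 to 2814. For 8 sperm genes the sums were 710 to 1415, 843 to 1513, 1198 to 1397 and, with water, 1761 to 1765. Those of 5 body wall muscle genes were 457 to 1194, 775 to 815, 762 to 1244 and, with water, 678 to 842. No gene of these lists was called against water by limma. At an unadjusted limma p under 0.05, 10 of the 10 oocyte and eggshell genes were lower with the benzyl ester. With the methyl ester 8 were lower and with tryptophan-betaxanthin 0. Of the sperm genes 3, 3 and 0 were lower with the benzyl ester, the methyl ester and tryptophan-betaxanthin. With tryptophan-betaxanthin 4 sperm genes had means above water and 4 below. Of the moulting genes 1, 4 and 0 were higher and 1, 0 and 1 lower, in the same order. Of the intestinal genes 2, 2 and 0 were higher. No yolk or body wall muscle gene had such a p. Over all probe sets, 7.07%, 8.13% and 3.52% were lower at this p with the benzyl ester, the methyl ester and tryptophan-betaxanthin. In that order 8.21%, 8.25% and 2.52% were higher. With the block, 1 oocyte and eggshell gene was lower and 1 moulting gene higher with the benzyl ester than with water. With the methyl ester 1 moulting gene was higher. In these comparisons the block called 1.28% and 1.19% of all probe sets. Against tryptophan-betaxanthin the block gave 9 of the 10 oocyte and eggshell genes lower with each ester (1 and 0 without the block). Of 6 yolk genes it gave 3 lower with the benzyl ester and 0 with the methyl ester. Of 8 sperm genes 3 and 4 were lower, and of the 7 moulting genes 1 and 2 were higher. Of the 7 intestinal genes, 1 was higher and 1 lower with the benzyl ester and 1 higher with the methyl ester. None of 5 body wall muscle genes was called. Over all probe sets the block called 11.3% and 11.1%, against 3.09% and 1.37% without it. In the first and second trials alone, folt-2 differed from water by 3.38 and C35A5.3 by 3.16 with the benzyl ester. The signal of gld-1 itself was 5.50 to 6.44 with the benzyl ester, 5.91 to 7.33 with the methyl ester and 7.12 to 7.45 with tryptophan-betaxanthin, against 7.32 and 7.43 with water, and without wild-type arrays it does not check the knockdown. The array medians were 2.18 to 2.24, and the number of arrays limits the precision.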

How the data were processed

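Deposited values were log2 signals, which the authors had computed with RMA. The submitters' processing notes name the Affymetrix Expression Console and the methods the Transcriptome Analysis Console, with no version of either stated. Probe sets without a gene symbol were left out, so that 26761 of 29317 were tested (26281 of them with 1 symbol). A gene with several probe sets was represented by that of highest mean. Group means were fitted over the 11 arrays in limma 3.58.1 (R 4.3.3, 7 residual degrees of freedom before moderation). The p-values were Benjamini-Hochberg adjusted over all tested probe sets in each of 6 comparisons, with a threshold of 0.05. They and the standard errors rest on the spread between trials that the labels call independent, pooled over all groups. That spread was unequal. Mean squared distances within groups were 5586 (benzyl ester), 4581 (methyl ester), 1758 (tryptophan-betaxanthin) and 847 (water). The p-values and standard errors for tryptophan-betaxanthin against water thus include the spread of the ester arrays. The fit was tested on simulated data with independent arrays, equal spread in all groups and no trial effect. This does not check it under unequal spread or shared trials. The labels number the trials, and arrays of one number were taken as 1 trial. Same-numbered arrays of the compounds deviated together (correlation over 0.1) in 8 of 9 pairs, with a range of -0.06 to 0.74 (9 of 15 pairs with water included). Compound arrays numbered 1 and 2 also correlated across numbers, at 0.15 to 0.50. The correlations therefore set the third trial apart, but cannot tell whether arrays numbered 1 or 2 shared a trial. The fit with trial as a block is given beside results whose call it changes. Third-trial water and wild-type arrays mentioned in the methods were not analysed here. Members and lists were chosen with earlier results of these data known. Genes were named as members, carrier paralogues, the 3 nearest probed genes on each side, the 8 nearest profiles, and folate list genes that were called or had one of the 3 smallest p in a comparison; others are marked as chosen after their values were seen. Planned protein and promoter motif searches were not run. Alternatives covered a block for trial, fits restricted to the groups compared, a trended robust prior, cyclic loess, median centring, a filter on low signals, and leaving out each array or the third trial.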

Additional observations from a re-analysis of the deposited data

How the results depend on the processing

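The 12 differences of folt-2 and C35A5.3 moved by less than 1 SD between replicates in all 180 recalculations (trial block, cyclic loess, median centring, each array left out, the third trial left out). Since the difference of folt-2 between methyl ester and water was near 0, its sign changed, with 0.13 under the trial block, 0.34 in the first and second trials, and -0.22 to 0.34 with single arrays left out. For folt-1 no comparison passed under any alternative, and methyl ester against water was between -0.0052 and 0.17 with single arrays left out, negative without methyl ester array 2. The replicate block changed no call of folt-1.

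Counts of called probe sets moved more. Against water the main counts were 151 with the benzyl ester, 69 with the methyl ester and 1 with tryptophan-betaxanthin. They were 828 and 366 for the benzyl and the methyl ester against tryptophan-betaxanthin, and 40 for the benzyl against the methyl ester. In this order of comparisons the counts were 343, 319, 9, 3011, 2961 and 63 with the replicate block, and 1455, 616, 136, 2930, 882 and 123 in the first and second trials, an alternative chosen after seeing the data. With only the arrays compared, where the spread came from those groups alone, they were 0, 0, 793, 822, 55 and 1. With an intensity trend and robust prior, tryptophan-betaxanthin against water gave 3 and the esters against tryptophan-betaxanthin gave 295 and 171. After cyclic loess, tryptophan-betaxanthin against water gave 0. With single arrays left out the ranges were 16 to 726, 0 to 135, 0 to 11, 25 to 2087, 12 to 1625 and 24 to 54.

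Of the folate list the main counts were 0, 1, 0, 0, 1 and 0. They were 2, 3, 0, 4, 2 and 1 with the block, 3, 4, 0, 3, 2 and 1 in the first and second trials, and 0, 0, 1, 0, 0 and 0 with only the arrays compared. With single arrays left out they were 0 to 1, 0 to 1, 0, 0 to 1, 0 to 2 and 0. With only the arrays compared, cth-1 and ugt-53 did not pass against water (adjusted p = 0.131 and 0.103 from limma), nor did cth-1 against tryptophan-betaxanthin (adjusted p = 0.0759). The causes were not tested.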
